A study of Mus musculus with 6 samples.

Results

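The complement system was followed here through 9 genes in mouse macrophages: the 3 chains of C1q (C1qa, C1qb and C1qc), the central component C3, the alternative pathway factors Cfb and Cfp, the anaphylatoxin receptors C3ar1 and C5ar1, and the inhibitor Cd55. They were taken by gene symbol from the 55335 gene rows of the deposited count table, and all 9 were found and all 9 passed the filter on low counts. After 1 h of LPS, C5ar1 was the member with the largest increase, 2.45-fold, followed by C3 with 1.91-fold and Cd55 with 1.53-fold. The C1q chains, Cfp and C3ar1 lay within 1.19-fold of their control levels. These values rest on the scaling between libraries described below. With libraries scaled only to their total counts, the C1q chains, Cfp and C3ar1 were lower in LPS libraries, while C5ar1 and C3 stayed higher. Cfb was counted only 11 to 26 times per library, and these counts are uncertain because most of its exonic bases are shared with another annotated gene.

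Complement is a cascade of plasma proteins that tags microbes and dying cells. C1q starts the classical pathway when it binds antibody or other ligands, and C3 is the protein on which the classical, lectin and alternative pathways converge. Cleavage releases C3a and C5a, small peptides that signal through G protein-coupled receptors on myeloid cells. Most plasma complement comes from the liver, but macrophages make C1q, properdin and C3 themselves and carry the receptors.

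The cells were bone marrow-derived macrophages (BMDMs) of C57BL/6 mice, grown from femur and tibia marrow in medium with serum and L929-conditioned medium, a source of macrophage growth factor. Total RNA was sequenced from 3 control libraries (cells given PBS) and 3 LPS libraries, all collected after 1 h. LPS is the bacterial cell wall component that Toll-like receptor 4 senses. No genetic change was made, and the study's methods give male mice aged 7 to 10 weeks. The sources used here give no LPS dose for these cells, and no statement that replicates came from separate animals, so p-values measure the spread between these libraries, which may be technical.

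Total counts ranged from 37787611 to 41516330 per library, and 3 counts, taken as the floor, corresponded to at most 0.0919 normalized CPM (counts relative to library size after edgeR's TMM scaling). These floors cover counting error only. Tnf, the check of the treatment, went from 20.2 ± 1.19 to 2302 ± 49.8 CPM (SD, n = 3 each). All 8 macrophage markers were detected, among them Csf1r at 3263 and Adgre1 at 2329 CPM in control libraries. The TMM factors differed between the groups, at 1.15 in each control library and 0.864 to 0.872 in the LPS libraries, so the scaling moves every fold change. Where libraries were scaled only to their totals (total-count scaling), the median over the 15687 tested genes was -0.42 on the log2 scale, against -0.013 with TMM. Fold changes here use TMM, and a small change is given with what the other scalings do to its direction.

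Of the 9 genes, 7 have an entry in RefSeq's table of gene starts (GRCm38.p6): C1qb, C1qc, C3, C3ar1, C5ar1, Cd55 and Cfp. The 250 bases before the start were searched on both strands for 6 motifs: the NF-kappaB consensus by name, AP-1 (TGANTCA), CRE (TGACGTCA), C/EBP (TTGCNNAA), ISRE (GAAANNGAA) and PU.1 (GAGGAA). Shown 5′ to 3′ are the windows of the members that were higher in LPS libraries by edgeR's test and whose window lies outside every gene of GENCODE M21. Capitals mark motif matches.

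C3, chr17:57228137-57228386, minus strand: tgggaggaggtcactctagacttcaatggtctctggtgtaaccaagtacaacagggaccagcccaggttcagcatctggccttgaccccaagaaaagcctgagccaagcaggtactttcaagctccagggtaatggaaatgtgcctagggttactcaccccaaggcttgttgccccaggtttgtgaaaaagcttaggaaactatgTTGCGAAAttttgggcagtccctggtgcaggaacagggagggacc
C1qb, chr4:136886201-136886450, minus strand: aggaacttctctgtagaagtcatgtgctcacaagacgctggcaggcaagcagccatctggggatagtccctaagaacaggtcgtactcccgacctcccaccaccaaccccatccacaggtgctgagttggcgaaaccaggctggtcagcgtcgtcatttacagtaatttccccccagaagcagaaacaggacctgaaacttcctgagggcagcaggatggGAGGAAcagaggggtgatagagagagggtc
Cfp, chrX:20931556-20931805, minus strand: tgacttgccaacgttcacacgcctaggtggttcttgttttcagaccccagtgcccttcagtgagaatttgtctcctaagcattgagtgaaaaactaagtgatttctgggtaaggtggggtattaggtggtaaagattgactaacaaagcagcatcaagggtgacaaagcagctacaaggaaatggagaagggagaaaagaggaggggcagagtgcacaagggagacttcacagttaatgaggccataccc

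The capitals in the C3 window are a C/EBP match that starts 45 bases before the gene, and 9.57% of 32536 windows of this length held one. Those in the C1qb window are a PU.1 match 30 bases before the start, a motif held by 23.4% of windows. The Cfp window held none of the 6 motifs. Among the windows not shown, C1qc held an NF-kappaB match (3.92% of all windows) and a PU.1 match, C3ar1 an AP-1 match (6.73%) and C5ar1 an ISRE match on the other strand (7.15%), while Cd55 held none and no member held a CRE (1.56%). Of 250 bases, 151 of the C1qc window and 202 of the C5ar1 window lie inside those genes as M21 annotates them. The NF-kappaB match of C1qc and the ISRE match of C5ar1 are in these parts. A match is a run of letters and was not tested as a binding site.

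Per kilobase of annotated exon, the members spanned about 4 orders of magnitude. In control libraries C1qb was the highest at 1383 ± 12.7 CPM per kb (SD, n = 3 libraries here and for the other levels per kb), 16th among the 12146 tested protein-coding genes. C1qa followed at 764 ± 20.9 and C1qc at 718 ± 12.5, ranked 26th and 28th. All 3 chains of C1q thus belonged to the most abundant messages of these macrophages. Next came C3ar1 at 254 ± 4.40, Cfp at 186 ± 7.20, C5ar1 at 102 ± 1.42 and C3 at 77.3 ± 2.45 CPM per kb. Cd55, at 0.685 ± 0.0341, and Cfb, at 0.175 ± 0.0366, were far below the others. No 2 neighbours in this order overlapped in the control libraries. In LPS libraries C1qc, at 757 ± 5.24, stood above C1qa, at 726 ± 20.6, and C5ar1, at 249 ± 1.72, had moved above Cfp, at 214 ± 2.04, to the level of C3ar1, at 251 ± 7.62. C3ar1 and C5ar1 were the only neighbours of the LPS order whose libraries overlapped. The lengths count every annotated exon, so a gene with rarely used exons is understated.

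**Figure D1:**
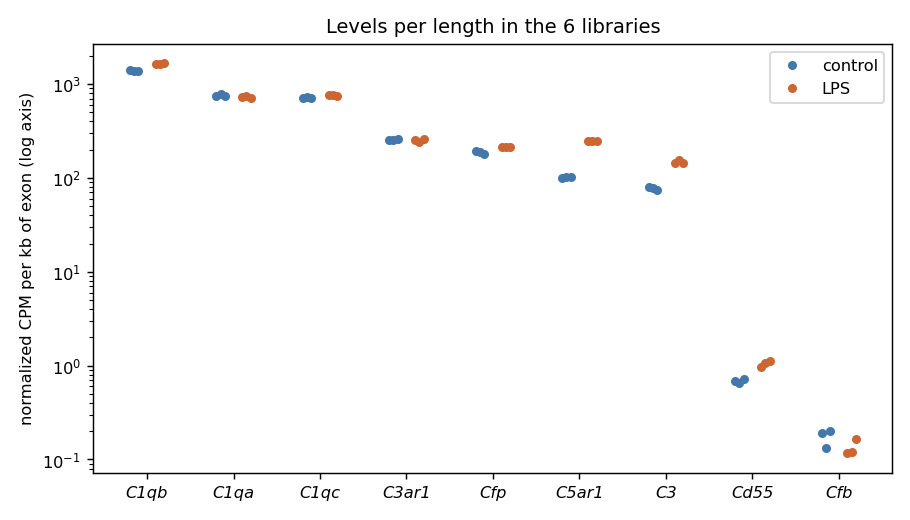
Levels per length of the 9 genes in each library, as normalized CPM per kb of exon on a log axis, with control libraries in blue and LPS libraries in orange. C1qb is highest in both groups, and C5ar1 moves from 102 to 249 CPM per kb, next to C3ar1 at 251.

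C1 is the complex that starts the classical pathway, and C1q, its recognition part, is built from equal numbers of A, B and C chains. The genes of the chains lie side by side on chromosome 4 of GRCm38 (136880129 to 136898803, minus strand), in the order C1qa, C1qc, C1qb along the direction of transcription, with gaps of 2851 and 3616 bp. C1qa (ENSMUSG00000036887.5) was at 784, 819.7 and 780.5 CPM in the control libraries and at 761, 773 and 731 in the LPS libraries. C1qb (ENSMUSG00000036905.8) was at 1520.2, 1499 and 1495 CPM in control and at 1771, 1794 and 1803 in LPS libraries. C1qc (ENSMUSG00000036896.5) was at 1384, 1412 and 1364 CPM in control and at 1466, 1467 and 1449 in LPS libraries. For each chain the groups did not overlap with TMM, but the distances were small, with LPS libraries lower for C1qa and higher for C1qb and C1qc. Under total-count scaling the groups did not overlap either, but LPS libraries were lower for each chain.

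The log2 fold change of C1qb was 0.25 (standard error 0.031, 95% interval 0.18 to 0.32, adjusted p = 1.25e-06 in the edgeR quasi-likelihood fit), which was 0.11 under upper quartile scaling and turned to -0.15 under total-count scaling. That of C1qc was 0.075 (standard error 0.032, interval 0.0078 to 0.14, adjusted p = 0.0458 in the same edgeR fit). That call did not hold: the adjusted p was between 0.0589 and 0.154 without any one of 5 of the 6 libraries, the exception being control replicate 2, and the sign turned under upper quartile (-0.068) and total-count scaling (-0.33). For C1qa it was -0.074 (standard error 0.035, interval -0.15 to 0.00030, edgeR adjusted p = 0.0724). C1qa did pass as lower with the replicate number as a block (edgeR adjusted p = 0.0340), under upper quartile scaling (-0.22, adjusted p = 2.85e-05) and under total-count scaling (-0.48, adjusted p = 9.51e-10). In bulk samples such as these, less RNA per cell and fewer cells that express a gene cannot be told apart.

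What did not depend on scaling was the proportion of the chains within a library. The ratio of C1qa to C1qb counts was 0.516, 0.547 and 0.522 in control and 0.430, 0.431 and 0.405 in LPS libraries. On the log2 scale it was lower in LPS libraries by -0.32 (LPS minus control; SD 0.045 in control and 0.049 in LPS libraries, n = 3 each). The ratio of C1qc to C1qb moved less, by -0.18 on the log2 scale, from 0.910, 0.942 and 0.913 to 0.828, 0.818 and 0.804. Neither ratio overlapped between the groups, and the exact two-sided permutation test gave p = 0.1 for each, the smallest that 3 libraries against 3 allow (0.133 after Benjamini-Hochberg adjustment over the 4 ratios computed). As a share of all C1q counts, C1qa made up 21.3% to 22.0% in control and 18.4% to 19.2% in LPS libraries, and C1qb 40.2% to 41.2% and 44.3% to 45.3%. With TMM, the 3 chains together came to between 3639 and 3731 CPM in control and between 3983 and 4033 CPM in LPS libraries. Unlike the proportions, this sum depends on scaling. Under total-count scaling all 3 chains were lower in LPS libraries, with log2 fold changes of -0.48 for C1qa, -0.15 for C1qb and -0.33 for C1qc.

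**Figure D2:**
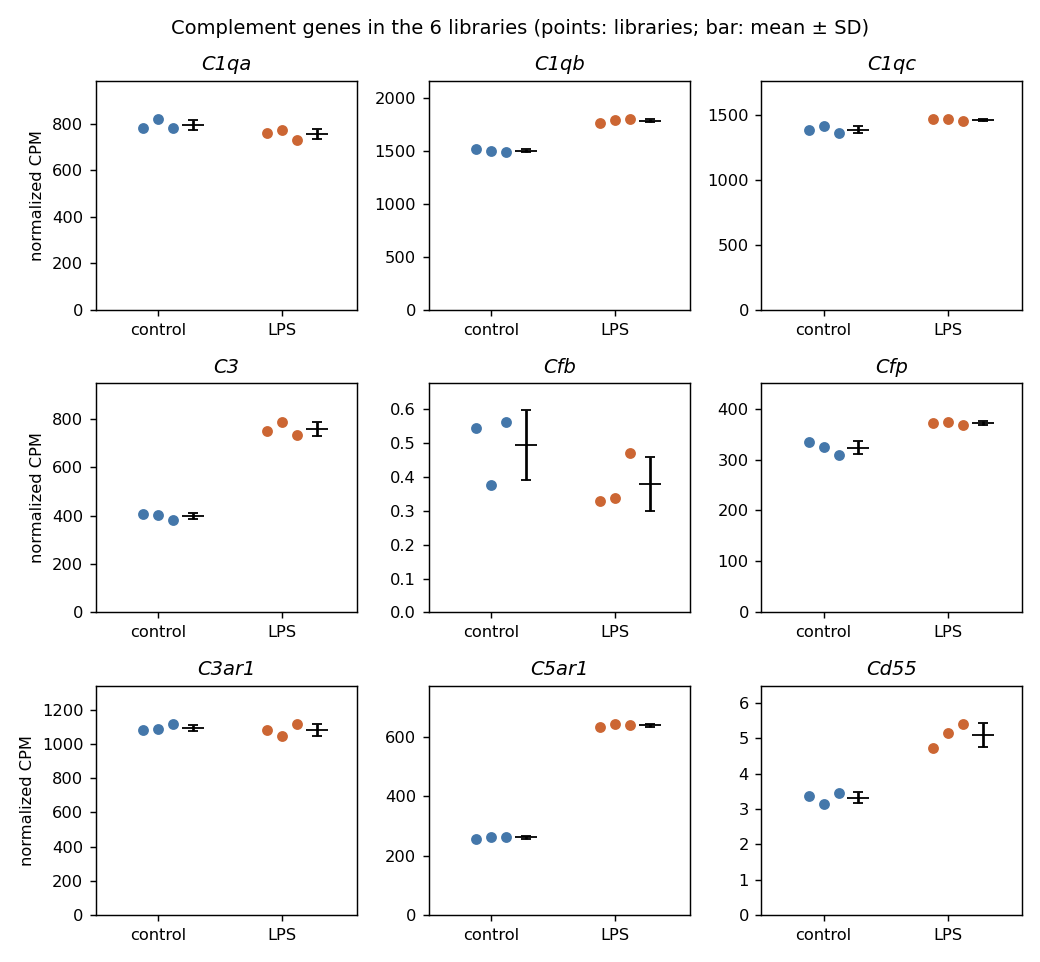
Normalized CPM of each gene in the 3 control (blue) and 3 LPS (orange) libraries, 1 panel per gene with its own axis from 0, and the mean ± SD as a bar. C3, C5ar1 and Cd55 are higher in every LPS library, the 3 C1q chains differ by little, and the groups overlap for Cfb and C3ar1.

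C3 (ENSMUSG00000024164.15, chromosome 17, 57203970 to 57228136, minus strand) is the precursor of the opsonin C3b and of C3a. It was at 407, 402 and 383 CPM in the control libraries and at 749.9, 789 and 736 CPM in the LPS libraries. Every LPS library was thus well above every control library. The log2 fold change was 0.93 (standard error 0.037, interval 0.85 to 1.01, edgeR adjusted p = 1.49e-13), just under the study's criterion of 1. Between libraries of the same replicate number it was 0.88, 0.97 and 0.94. It was 0.53 under total-count scaling and 0.79 under upper quartile scaling, so C3 was higher in LPS libraries under each scaling tried.

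The alternative pathway needs factor B, the protease part of its C3 convertase, and properdin, which stabilizes that convertase. Cfp, the properdin gene on the X chromosome (ENSMUSG00000001128.7, 20925454 to 20931555, minus strand), was at 334, 325 and 309 CPM in control and at 372, 374 and 367 CPM in LPS libraries. The groups did not overlap, and the log2 fold change was 0.20 (standard error 0.035, interval 0.13 to 0.27, edgeR adjusted p = 5.61e-05), which turned to -0.20 under total-count scaling and was 0.058 (adjusted p = 0.144) with upper quartile scaling. Cfb, the gene of factor B (ENSMUSG00000090231.10, chromosome 17, 34856374 to 34862518, minus strand), was counted only 26, 17 and 26 times without LPS and 11, 11 and 16 times with it. In normalized CPM the groups overlapped, at 0.376 to 0.564 in control and 0.328 to 0.470 in LPS libraries, and LPS minus control was -0.39 on the log2 scale (standard error 0.31, interval -1.03 to 0.26, edgeR adjusted p = 0.277). At these low counts that test did not detect a change of Cfb, and the interval is wide and includes 0. Under total-count scaling the libraries did not overlap and the value was -0.79 (edgeR adjusted p = 0.0246). Of the 2825 exonic bases of Cfb, 2246 are shared with Gm20547, an annotated gene on the same strand that also spans C2 and had 0 counts in every library. Reads on shared exons can be left uncounted, depending on a counting setting not given in the sources used here, so the low counts of Cfb are uncertain. The ratio of Cfb to Cfp counts differed by -0.59 on the log2 scale, with overlapping groups (p = 0.2 by the exact two-sided permutation test, 0.2 after adjustment).

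C3ar1 and C5ar1 are the receptors of C3a and C5a, the second a strong attractant and activator of phagocytes. C5ar1 (ENSMUSG00000049130.6, chromosome 7, 16246743 to 16259540, minus strand) was at 257, 262 and 264 CPM in control and at 634, 643 and 640.3 CPM in LPS libraries. The increase was far larger than the spread within either group. The log2 fold change was 1.29 (standard error 0.032, interval 1.22 to 1.36, edgeR adjusted p = 1.16e-16), with 1.30, 1.29 and 1.28 between same-numbered libraries. C5ar1 ranked 1317th of the 15687 tested genes by log2 fold change. Under total-count scaling the value was 0.89, below the criterion of 1.

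C3ar1 (ENSMUSG00000040552.8, chromosome 6, 122847138 to 122856161, minus strand) was at 1082, 1085 and 1116 CPM in control and at 1084, 1049 and 1115 CPM in LPS libraries. The groups overlapped, and the log2 fold change was -0.016 (standard error 0.034, interval -0.088 to 0.057, edgeR adjusted p = 0.700). As a ratio of LPS to control the interval ran from 0.941 to 1.04. Under total-count scaling the value was -0.42 (adjusted p = 5.15e-09) and with upper quartile scaling -0.16 (adjusted p = 4.91e-04). The levels of the receptors were closer to each other in LPS libraries. The log2 ratio of C3ar1 to C5ar1 counts was 2.08, 2.05 and 2.08 in control and 0.77, 0.71 and 0.80 in LPS libraries, a difference of -1.31 that no scaling between libraries affects (exact two-sided permutation p = 0.1, the smallest possible, and 0.133 after adjustment).

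**Figure D3:**
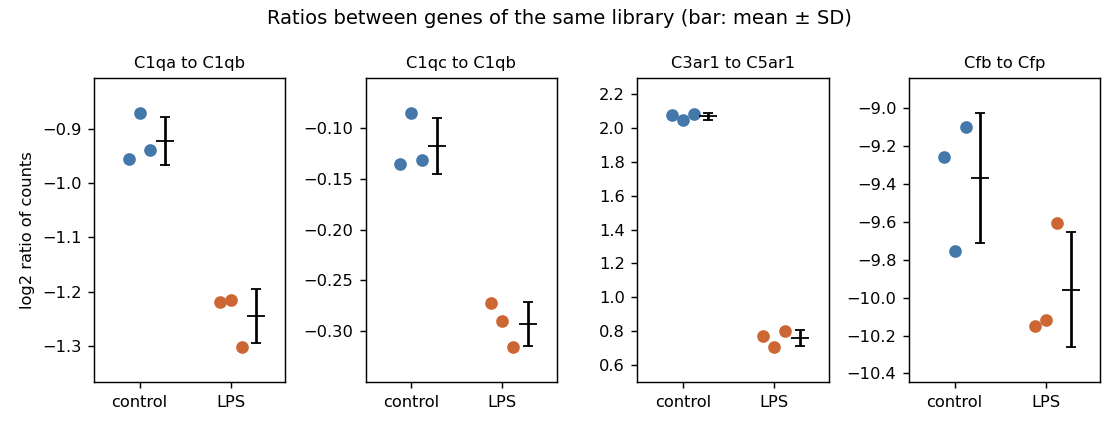
Log2 ratio of the counts of 2 genes in the same library, for the 3 control (blue) and 3 LPS (orange) libraries, with the mean ± SD as a bar and axes that do not start at 0. The ratios of C1qa and C1qc to C1qb and of C3ar1 to C5ar1 are lower in every LPS library, the last by 1.31, and those of Cfb to Cfp overlap.

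Cd55, or decay-accelerating factor, is a membrane protein that takes C3 convertases apart and so protects the cell that carries it. Cd55 (ENSMUSG00000026399.12, chromosome 1, 130439027 to 130462744, minus strand) was counted 160, 142 and 160 times without LPS and 159, 168 and 184 times with it. After scaling these were 3.36, 3.14 and 3.47 CPM in control and 4.74, 5.15 and 5.41 CPM in LPS libraries. The groups did not overlap after TMM or total-count scaling, while the unscaled counts did. The log2 fold change was 0.62 (standard error 0.10, interval 0.40 to 0.84, adjusted p = 4.71e-05 by edgeR's test), which was 0.21 (adjusted p = 0.0700) under total-count scaling. The neighbouring paralog Cd55b had at most 1 count in any library. An antisense gene, Gm16083, shares 102 of the 4853 exonic bases of Cd55 and had at most 4 counts.

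Set against all tested genes, 1 of the 9 members, C5ar1, rose past the study's criteria (log2 fold change above 1 at an adjusted p under 0.05), while 10.5% of all genes did. By edgeR's test 0 members fell past them, against 10.4% of all genes, and 0 fell at an unadjusted p under 0.05. DESeq2 and limma voom also gave 1 rise and 0 falls past both criteria. Without the criterion on size, 6 members passed the adjusted p, against 67.7% of all genes: 6 were rises (32.9% of all genes) and 0 were falls (34.9%; limma voom gave 1 fall, C1qa). The share past both criteria and the share at the adjusted p in either direction are near the background, and under total-count scaling the split was 2 rises and 6 falls, so these counts are not a result about the members. Their median log2 fold change was 0.20, against -0.013 over all tested genes. Each scaling moves all genes by nearly the same amount, so a value relative to the median of all genes does not depend on it, by construction. On that measure C5ar1 was at 1.31, C3 at 0.945 and Cd55 at 0.63. C1qb was at 0.26, Cfp at 0.21 and C1qc at 0.088, while C3ar1 was at -0.0027, C1qa at -0.061 and Cfb at -0.37.

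**Figure D4:**
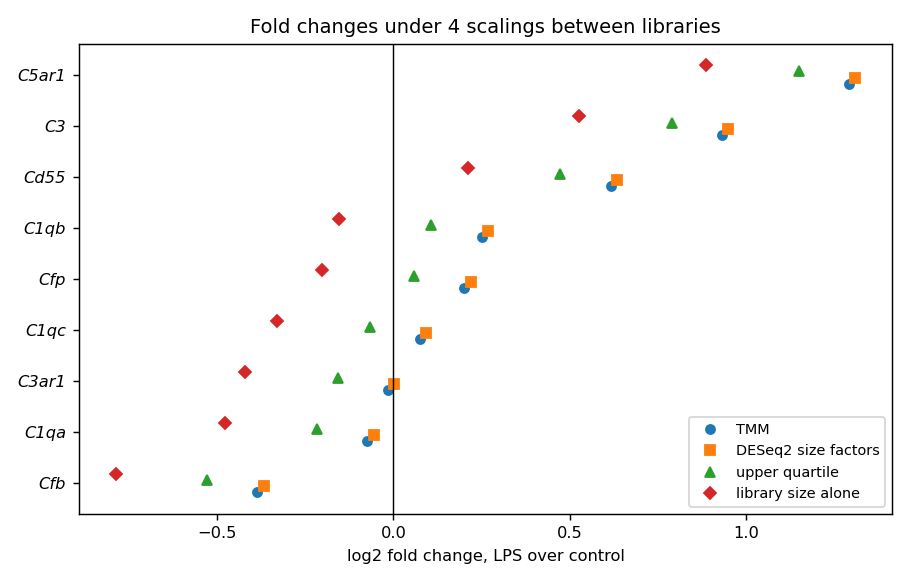
Log2 fold change, LPS over control, of the 9 genes under TMM, DESeq2's size factors, upper quartile scaling and total-count scaling (labelled library size alone). The order of the genes stays the same, while total-count scaling moves all of them down by about 0.40, which turns C1qb, Cfp and C1qc below 0.

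The rest of the pathway was read from a list of 44 complement genes. Of these, 23 passed the filter on low counts, and 9 had 0 counts in every library, among them Cfd (factor D), Cfi (factor I), Mbl1 and Mbl2 (mannose-binding lectins), and C6 and C7 of the membrane attack complex. The macrophages thus listed few messages of the terminal pathway: 1 of its 7 genes, C8g, was tested and did not pass. Of the 23, 1 rose past both criteria, Vsig4, and 1 fell, Cd46. These shares of 23 stand beside 10.5% and 10.4% of all tested genes. Without the criterion on size, 9 rose and 2 fell, beside 32.9% and 34.9% of all genes. At least 4 of the 9 (Itgb2, Itgam, Calr and C5ar2) passed as lower under total-count scaling, which was not read for all 9. These counts are thus not a result about the list. The median log2 fold change was 0.092, against -0.013 over all tested genes. Vsig4, a receptor for C3b, had few counts, 11, 9 and 12 without LPS and 13, 27 and 21 with it. Its log2 fold change was 1.39 (standard error 0.34, edgeR adjusted p = 0.00163). It was 0.99 under total-count scaling and 1.12 without LPS replicate 2. Cd46, a membrane cofactor for C3b cleavage, was counted 80, 107 and 107 times without LPS and 28, 18 and 25 times with it (-1.58, standard error 0.21, edgeR adjusted p = 2.89e-06). The antisense transcript A330023F24Rik shares 1079 of the 7603 exonic bases of Cd46.

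The most abundant of these genes per kb were the receptor chains and C1q-binding proteins. Itgb2, the beta chain of complement receptors 3 and 4, was at 715 ± 22.0 CPM in control and 807 ± 19.0 in LPS libraries (log2 fold change 0.18, adjusted p = 2.60e-04 by edgeR's test; 0.032 and adjusted p = 0.422 under upper quartile scaling, -0.23 under total-count scaling). Itgam, the alpha chain of receptor 3, had 0.23 (adjusted p = 5.12e-06; -0.17 under total-count scaling), and 3450 of its 5024 exonic bases are shared with Gm49368 on the same strand. Itgax, the alpha chain of receptor 4, had 0.052 (adjusted p = 0.274). Cd93, a surface protein first described as a C1q receptor, rose from 765 ± 17.4 to 1131 ± 13.5 CPM (0.56, standard error 0.033, edgeR adjusted p = 4.56e-11; n = 3 each). Calr, calreticulin, had 0.076 (adjusted p = 0.0480), a call that leaving out any 1 library ended and whose sign turned under upper quartile (-0.067) and total-count scaling (-0.33).

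Among the early classical components, C1ra was at 6.47 ± 0.0833 CPM in control and 6.92 ± 0.117 in LPS libraries (log2 fold change 0.096, edgeR adjusted p = 0.317). C1s1 had 6 to 22 counts per library (-0.37, adjusted p = 0.449), and the near copies C1rb and C1s2 at most 8. C4b fell from 6.23 ± 0.680 to 4.24 ± 0.455 CPM (-0.55, standard error 0.11, adjusted p = 2.47e-04), and C4a had 13 to 30 counts (0.14, adjusted p = 0.703). C4a and C4b are near-identical, so reads could have been split between them. Each C1 protease, C4 and C2 gene was thus under 10 CPM in every library. C2 shares 1656 of its 3872 exonic bases with Gm20547 on the same strand, so its low counts are uncertain, like those of Cfb.

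**Figure D5:**
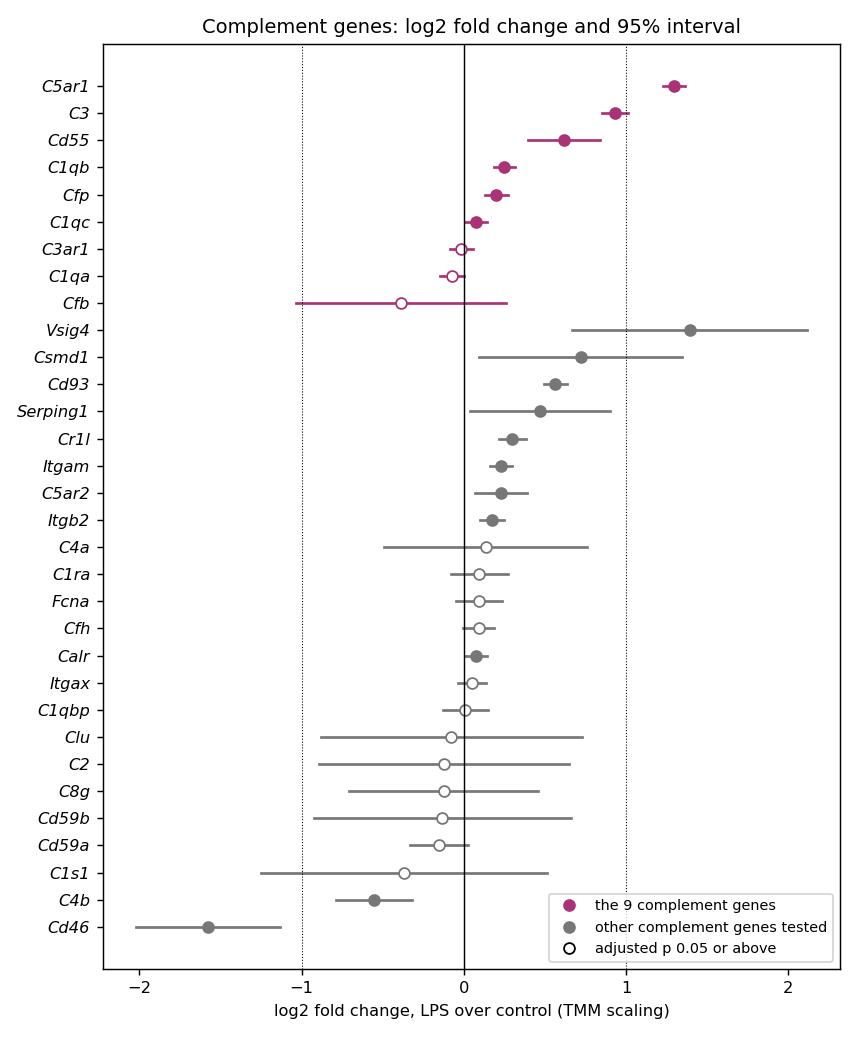
Log2 fold change, LPS over control with TMM scaling, of the 9 genes (purple) and of the 23 other complement genes tested (grey), with 95% intervals. Filled points have an adjusted p under 0.05, open points do not, and dotted lines mark log2 fold changes of -1 and 1. C5ar1 and Vsig4 lie above 1 and Cd46 below -1.

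The nearest tested coding gene on each side of a member is given next. C5ar2, a second C5a receptor whose gene lies 2589 bp from C5ar1 on the same strand, was at 0.23 on the log2 scale (standard error 0.076, interval 0.070 to 0.39, edgeR adjusted p = 0.0124), an interval that lies below that of C5ar1, and at -0.17 under total-count scaling. The C5ar2 call was lost under upper quartile scaling (0.087, adjusted p = 0.315) and without control replicate 1, control replicate 2 or LPS replicate 1 (edgeR adjusted p = 0.0523, 0.0531 and 0.0805). On the other side of C5ar1, Inafm1 had -0.26 (edgeR adjusted p = 0.142), and it passed as lower under upper quartile (-0.40) and total-count scaling (-0.66), with no filter (-0.28) and without control replicate 1 (-0.38) or LPS replicate 2 (-0.39). Tnfsf14, 9793 bp from C3 and encoding the cytokine LIGHT, rose by more than C3 did, from 4.11 ± 0.0257 to 26.6 ± 2.16 CPM (2.70, standard error 0.077, edgeR adjusted p = 1.02e-15; n = 3 each), and Gpr108 on the other side had 0.090 (edgeR adjusted p = 0.0610; 0.0320 with the replicate block and 0.0253 with DESeq2's size factors). Beside the C1q cluster, Ephb2 had 0.19 (adjusted p = 0.541) and Zbtb40 -0.37 (adjusted p = 4.20e-06). The neighbours of C3ar1 were lower in LPS libraries, Foxj2 at -0.43 and Necap1 at -0.70 (adjusted p = 1.90e-06 and 9.28e-11). Around Cfp, Syn1 had 0.36 and Elk1 0.43 (edgeR adjusted p = 8.10e-04 and 1.28e-05). For Elk1 it was 0.023 (adjusted p = 0.753) under total-count scaling. Around Cfb, Nelfe had 0.026 and C2 -0.12 (edgeR adjusted p = 0.710 and 0.777). The tested coding genes nearest to Cd55 were far away, Cxcr4 (0.25) at 1846734 bp and Pfkfb2 (-0.54) at 226438 bp. Ephb2, Gpr108, Nelfe, Syn1 and Cxcr4 were below 0 under total-count scaling, as were Gpr108 and Nelfe under upper quartile scaling.

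Over the 6 libraries, the profile of a gene was taken as its log2 CPM centred on its mean, and likeness as the Euclidean distance between profiles, over the 12137 genes whose mean count was 50 or more. The 3 genes nearest to C5ar1 were Bach1 (distance 0.0266, log2 fold change 1.29), Rasa2 (0.0386, 1.31) and Itprid2 (0.0627, 1.34). Those nearest to C1qa were Sephs1, Bcat2 and Jtb, at distances from 0.0185 to 0.0226. Within the members, C1qb and Cfp were closest (0.0932), then C1qc and C3ar1 (0.150), while the A and B chains of C1q were 0.408 apart. With 2 groups of libraries these distances mostly reflect the fold change.

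With TMM, markers of other cells were low but not all level between the groups. The sums given here depend on that scaling, as the fold changes do, and were not computed under the others. The 4 dendritic cell markers Flt3, Zbtb46, Xcr1 and Siglech rose past the criteria in 4 of 4, against 10.5% of all tested genes. Their summed level was 3.15 to 4.01 CPM in control and 9.62 to 10.6 CPM in LPS libraries. Some had few counts without LPS, with 1 or 2 per library for Xcr1 and 18 or 19 for Zbtb46. The 8 neutrophil markers summed to 44.0 to 47.0 and 57.7 to 61.9 CPM, with the defining Ly6g at or under 3 counts in every library. Under total-count scaling the groups overlapped for each of these 8 markers. The 5 stromal markers summed to 13.5 to 14.6 and 15.2 to 17.6 CPM, the 4 of mast cells and eosinophils to 1.63 to 1.77 and 2.45 to 2.56 CPM, and the 4 of B cells to 2.61 to 2.92 and 2.62 to 3.40 CPM. The markers of T or NK cells and of erythroid cells stayed under 1 CPM in sum. The 8 macrophage markers summed to 30578 to 31912 CPM in control and 36759 to 37147 CPM in LPS libraries, but they did not move alike. Cd14, the 1 that rose past the criteria, went from 398 to 3623 CPM. Fcgr1 fell from 396 to 284 CPM (log2 fold change -0.48, edgeR adjusted p = 2.62e-10), and Mertk had -0.042 (edgeR adjusted p = 0.294). Whether other cells had a part in the values of the complement genes was not tested.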

How the data were processed

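RNA-seq counts of 6 BMDM libraries were analysed. Per the labels and the study's methods, the authors prepared stranded total RNA libraries, aligned paired-end reads to GRCm38 (HISAT2 2.1.0, SAMtools 1.17), and deposited the raw counts that featureCounts 2.0.0 gave for each gene. The annotation, strand setting and treatment of reads with several matches are not given in the sources used here. Of 55335 identifiers, 55154 matched GENCODE M21 with the version removed; coordinates are from M21 on GRCm38, counted from 1.

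All genes were fitted in R 4.3.3 with edgeR 4.0.16: default filterByExpr (15687 genes), TMM, quasi-likelihood test, Benjamini-Hochberg adjustment over all tested genes, standard errors from the F statistic. Calls used the study's criteria. Groups came from the sample titles. The functions were tested on simulated data. The members and lists were chosen with earlier results of these data known. Named were all members, the pathway genes past the criteria or among the 5 highest per kb, close paralogs, the nearest tested coding gene on each side, and the 3 nearest profiles (prior count 2) to C1qa and to the member with the largest change. Cfd, Cfi, Mbl1, Mbl2, C6, C7 and C8g were named after their values were seen. The labels give same-numbered libraries the same batch; their deviations from group means had correlations of -0.0139, 0.0822 and 0.0387, and a model with that number as a block was fitted beside the main one. Alternatives were other scalings and filters, DESeq2 1.42.0, limma 3.58.1 voom and leaving out each library.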

Additional observations from a re-analysis of the deposited data

How the results depend on the processing

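The largest dependence was on scaling. Library size alone gave 1213 rises and 2964 falls over all genes (29.0% rises, against 50.4% with TMM), 0 members past the criteria, 2 members higher and 6 lower at an adjusted p under 0.05, and 0 pathway genes that rose past the criteria. Log2 fold changes that changed sign with it were -0.15 for C1qb, -0.33 for C1qc, -0.20 for Cfp, -0.23 for Itgb2, -0.33 for Calr, -0.17 for Itgam, -0.35 for Itgax, -0.31 for C1ra, -0.27 for C4a, -0.21 for Ephb2, -0.32 for Gpr108, -0.38 for Nelfe, -0.049 for Syn1, -0.17 for C5ar2 and -0.15 for Cxcr4. The cause of the shift was not tested. With upper quartile scaling 42.6% of calls were rises. It put 2 members lower at the adjusted p, and changed the sign of C1qc (-0.068), Calr (-0.067), Itgax (-0.091), C1ra (-0.047), C4a (-0.0066), Gpr108 (-0.053) and Nelfe (-0.12). C3ar1 was 0.0028 with DESeq2's size factors and 0.0029 with DESeq2. A filter of 10 counts in every library gave 1027 falls over all genes and 0 rises in the pathway list, since Vsig4 was not kept, and no filter gave 2 rises in that list, adding Hc. Exactly 1 member, C1qa, passed the adjusted p as lower with each of these filters, with limma voom and with the replicate block. The block changed no other call among the members and added that of Gpr108. Without single libraries, the number of members lower at the adjusted p ranged from 0 to 1 and that of pathway rises from 1 to 2 (Csmd1 joined without control replicate 1), C3ar1 from -0.041 to 0.0069, C4a from -0.13 to 0.35, Nelfe from -0.025 to 0.076 and C2 from -0.59 to 0.20. These 4 changed sign without LPS replicate 2, or for C2 without LPS replicate 3, and the cause was not tested. Of the other log2 fold changes of named genes recomputed in this way, 188 kept their direction and side of the threshold, 14 lost the call (C1qc, Calr and C5ar2) and 4 gained it (C1qa, Itgax and Inafm1). C5ar1 rose past the criteria in each alternative except library size alone, and C3 stayed higher with an adjusted p under 0.05 in all. Each of the 4 ratios kept its direction without any library and with the block. Counts under about 30 per library, as in Cfb, Vsig4, C2 and C4a, limit what could be measured.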
